A study of Saccharomyces cerevisiae with 6 samples.

Results

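The histone genes of Saccharomyces cerevisiae were compared between a sulfur dioxide-resistant mutant strain and its reference strain. The 10 members were taken by name and found through the systematic names on the arrays, and all 10 of them are among the 6256 genes with a probe. They are the 8 replicative core genes HTA1 and HTA2 (histone H2A), HTB1 and HTB2 (H2B), HHT1 and HHT2 (H3) and HHF1 and HHF2 (H4), the H2A.Z variant gene HTZ1, and the linker histone gene HHO1. F3 is a mutant obtained by evolutionary engineering, represented by 3 cultures, and the reference is the strain it is set against, also with 3 cultures. F3 is a single selected strain, so its 3 cultures show the spread between cultures and not between independent mutants. Per the design text, both strains were grown at 30 °C and 150 rpm in yeast minimal medium and sampled in early exponential phase at an optical density near 1. The growth label names rich medium overnight instead, which was taken here as the preculture, although the labels do not say so. The labels name no genotype for either strain and no sulfite in the cultures. RNA from each culture was hybridised to 1 one-colour Agilent array.

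Nucleosomes wrap DNA around an octamer of H2A, H2B, H3 and H4. In budding yeast each core histone is encoded by a pair of genes, and the genes lie in divergent pairs, an H2A gene beside an H2B gene and an H3 gene beside an H4 gene, with a shared upstream region. Their polyadenylated transcripts are made mainly in S phase: Spt10, Spt21 and the Swi4 factor activate them, and the HIR complex, with Asf1 and Rtt106, represses all of the pairs but HTA2-HTB2 outside S phase. HTZ1 encodes the variant that the SWR1 complex places in nucleosomes beside promoters, and HHO1 encodes the yeast linker histone, which binds DNA outside the core particle.

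Levels are log2 processed signals with the 75th percentile of their own array set to 0. A difference is F3 minus reference, and it was called where limma's adjusted p was under 0.05 over the 5948 genes tested. All 10 members were well above background on all 6 arrays, none of their spots was saturated or marked as an outlier, and the 2 spots of a probe differed by at most 0.214 on the log2 scale. The F3 arrays were on 1 slide and scanned on another day than the reference arrays, which were on 2 slides, so strain and scan cannot be told apart. The software's quality marks for the spot grid and for negative controls in range were both unset on all 3 F3 arrays. Both marks were set on all 3 reference arrays. Scaled to spike-in RNAs instead, the median difference of all genes tested was 1.76 in place of 0.05, and all 10 members were then higher in F3, by 0.74 to 1.97. Directions below therefore hold relative to the 75th percentile only. In extracts of whole cultures, fewer cells in S phase and less histone transcript per S-phase cell cannot be told apart.

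Scaled to the array percentile, 5 of the 8 core genes were lower in F3, both H2A genes, both H4 genes and HHT2. None of the 8 was then higher, but these counts changed with the scaling. Quantile normalization gave 4 lower and 2 higher (HTB1 and HHT1), and 4 lower and 1 higher after normexp. The authors' deposited values gave 3 lower and 2 higher, and spike-in scaling 0 lower and 8 higher. Of the 8 differences scaled to the array percentile, those of the H2A genes were the most negative. Those of the H2B genes were the most positive. Spike-in scaling shifts all genes alike, so it keeps this order by construction. It gave 0.74 for HTA1, 0.86 for HTA2, 1.76 for HTB1 and 1.80 for HTB2. With quantile normalization HHT1 (0.22) lay above HTB2 (0.17). Among all genes tested 38.2% were called lower in F3 and 41.5% higher. Of all 10 members 6 were lower and 1 higher, where 79.7% of the genes tested were called in either direction, so the number of members called is near the background. No member differed 2-fold, by limma's adjusted or unadjusted p, whereas 16.2% of the genes tested were at least 2-fold lower and 16.6% at least 2-fold higher. HTA1 (−0.97) lay close to 2-fold and passed it in some alternatives, with −1.04 without F3 replicate 1 and −1.06 without reference replicate 1. The core median was −0.42, against 0.05 over all genes tested, and the core differences ran between −0.97 and 0.09. All 8 core genes were among the tenth of tested probes with the highest signal, whose median difference was −0.34. With quantile normalization the core median was −0.12 and the median of those bright probes −0.16. In the authors' deposited values the core median was −0.083.

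HTA1, an H2A gene, had levels of 2.45, 2.22 and 2.30 in the F3 cultures and 3.13, 3.27 and 3.51 in the reference cultures. The reference arrays were all higher, with a gap to F3 that exceeded the spread within either strain. Its difference was −0.97 ± 0.11 (SE, adjusted p = 5.3e-05), and 16.6% of the genes tested had a lower difference. HTA2, the other H2A gene, had levels of 2.82, 2.67 and 2.70 in F3 and 3.53, 3.64 and 3.57 in the reference, again without overlap. The HTA2 level was lower by −0.85 ± 0.08 (SE, adjusted p = 1.1e-05). Both H2A genes were called lower in each of the 15 alternatives other than spike-in scaling, which gave 0.74 for HTA1 and 0.86 for HTA2.

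HTB1, the H2B gene that shares its upstream region with HTA1, had levels of 3.62, 3.48 and 3.53 in F3 and 3.48, 3.45 and 3.56 in the reference, and the strains overlapped. Its difference was 0.05, with a 95% interval between −0.13 and 0.22 (adjusted p = 0.59). Quantile normalization gave 0.37 for HTB1 and the authors' deposited values 0.39, and both were called higher (adjusted p = 0.0042 and 0.003). HTB2, which lies beside HTA2, had levels of 2.29, 2.15 and 2.27 in F3 and 2.03, 2.24 and 2.19 in the reference. These overlapped as well, and the difference of 0.09 had a 95% interval between −0.11 and 0.28 (adjusted p = 0.38).

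The H3 genes did not give the same call. HHT1 had levels of 3.61, 3.52 and 3.65 in F3 and 3.81, 3.59 and 3.80 in the reference, and 1 reference array lay within the F3 range. The HHT1 difference was −0.14, with a 95% interval between −0.34 and 0.06 (adjusted p = 0.17), and with quantile normalization (0.22, adjusted p = 0.032) and in the authors' deposited values (0.26, adjusted p = 0.016) it was called higher instead. HHT2 had levels of 3.48, 3.47 and 3.43 in F3 and 4.14, 4.02 and 3.99 in the reference, with no overlap. HHT2 fell by 0.59 (SE 0.07, adjusted p = 8.9e-05). It was not called in the authors' deposited values (−0.18, adjusted p = 0.07), and the difference was 1.12 with spike-in scaling.

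Both H4 genes were lower in F3 and their strains did not overlap. HHF1 had levels of 3.76, 3.66 and 3.76 in F3 and 4.13, 4.22 and 4.15 in the reference. Its difference of −0.44 ± 0.07 (SE, adjusted p = 5.2e-04) shrank to −0.035 with quantile normalization and was 0.011 in the authors' deposited values. HHF2 had levels of 2.16, 2.06 and 2.10 in F3 and 2.47, 2.54 and 2.52 in the reference. HHF2 fell by 0.40 (SE 0.07, adjusted p = 7.8e-04), and was called lower in each of the 15 alternatives other than spike-in scaling (1.31). All 8 core genes were among the tenth of tested probes with the highest signal, 595 probes whose median difference was −0.34, against 0.08 for the other probes. With quantile normalization these medians were −0.16 and 0.05, and the core median was −0.12. The part of signal strength in the core differences was not tested.

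**Figure D1:**
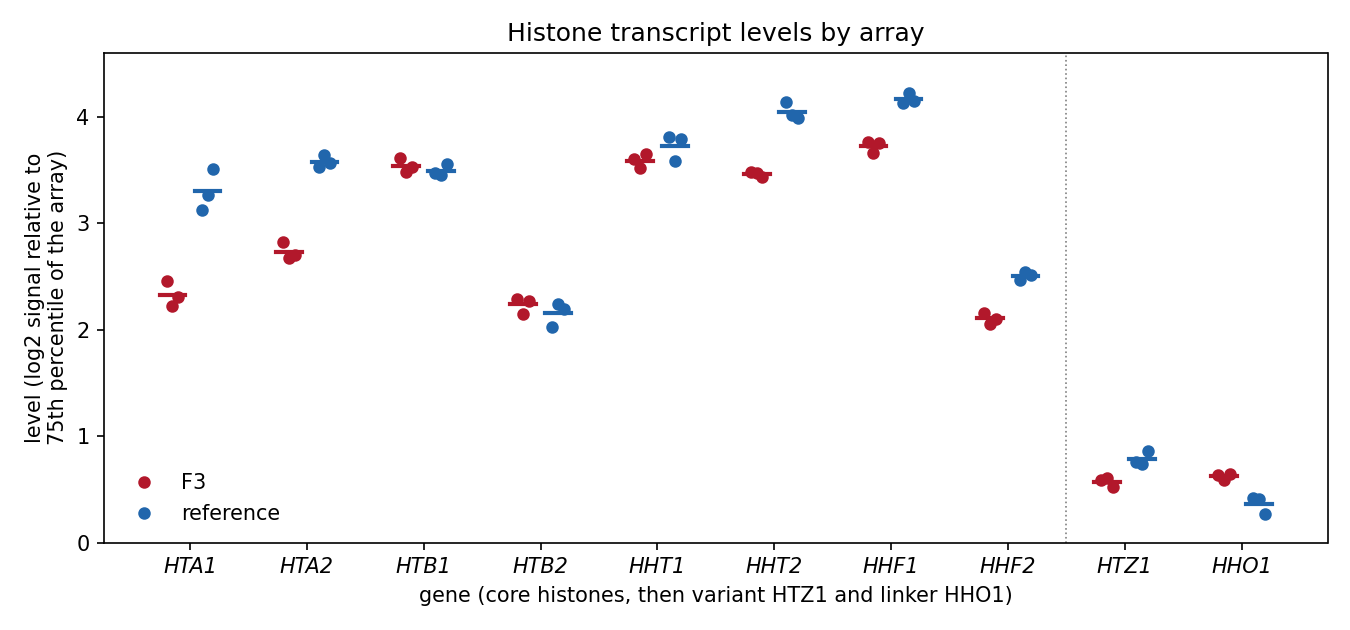
Level of each histone gene on each array (log2 signal with the 75th percentile of each array at 0); points are the 3 F3 and the 3 reference arrays, bars are strain means, and heights of different probes are not comparable with each other. F3 lies below the reference without overlap for HTA1, HTA2, HHT2, HHF1, HHF2 and HTZ1 and above it for HHO1, relative to the 75th percentile; with spike-in scaling all 10 genes are higher in F3.

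The variant and the linker gene went opposite ways relative to the 75th percentile. HTZ1 had levels of 0.59, 0.61 and 0.52 in F3 and 0.76, 0.74 and 0.86 in the reference, and fell by 0.21 (SE 0.07, adjusted p = 0.025). That call was lost in 3 of the 6 fits that left out 1 array, at differences close to the one above: without F3 replicate 1 (−0.22, adjusted p = 0.063), without F3 replicate 3 (−0.19, adjusted p = 0.091) or without reference replicate 3 (−0.18, adjusted p = 0.07). Quantile normalization also lost it (−0.16, adjusted p = 0.066), and spike-in scaling gave 1.50. HHO1 had levels of 0.64, 0.59 and 0.64 in F3 and 0.41, 0.41 and 0.27 in the reference, with no overlap. HHO1 was higher by 0.26 (SE 0.07, adjusted p = 0.011), and was called higher in each of the 16 alternatives, with values between 0.21 and 0.29 except with spike-in scaling (1.97). The strains did not overlap for 7 of the 10 members, against 82.4% of the genes tested, and 6 of these members were lower in F3, against 39.5% of the genes tested.

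**Figure D2:**
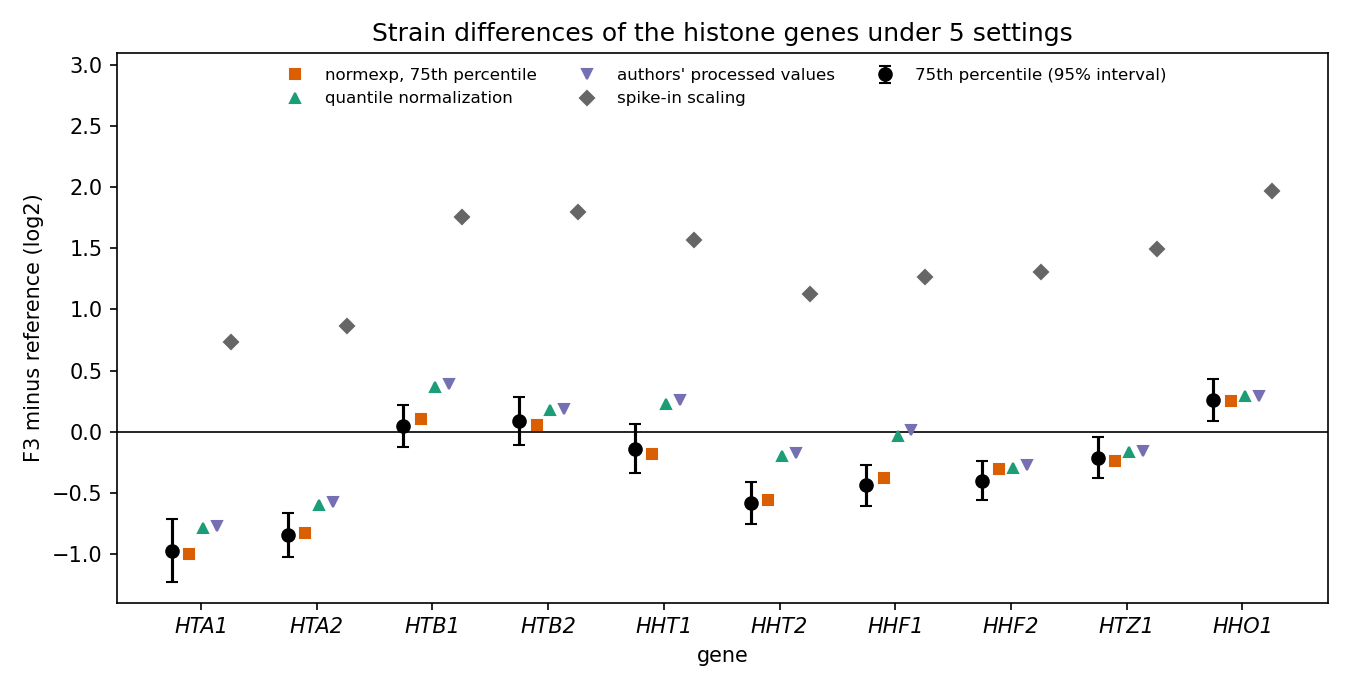
F3 minus reference (log2) for each histone gene; the circle with its 95% interval is the limma fit on values scaled to the 75th percentile, and the other marks are the same fit after normexp background correction, after quantile normalization, on the authors' deposited values and after spike-in scaling. HTA1, HTA2, HHT2, HHF2 and HTZ1 lie below 0 in all but spike-in scaling (0.74 for HTA1 and 0.86 for HTA2). HHO1 lies above 0 in all 5, and HHT1 and HHF1 change sign also among the settings other than spike-in scaling.

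Ratios within an array do not depend on a factor that scales the whole array, and ask whether the core genes moved apart from HTZ1 and HHO1. Relative to HHO1, the mean of the 8 core genes was 2.39, 2.31 and 2.33 in the F3 cultures and 2.92, 2.97 and 3.14 in the reference cultures, a difference of −0.67. No F3 array reached the lowest reference array, and the difference was between −0.71 and −0.41 in the alternatives. Relative to HTZ1, the core mean was 2.44, 2.30 and 2.45 in F3 and 2.58, 2.63 and 2.55 in the reference, a difference of −0.19. This smaller difference was above 0 with quantile normalization (0.019) and in the authors' deposited values (0.043), so no separation of the core genes from HTZ1 held across the settings.

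Single core genes differed in this contrast. Against HHO1, all 8 had a negative difference, from −1.24 for HTA1 to −0.18 for HTB2. The strains did not overlap for 7 of the 8. All 8 share HHO1, which was itself higher by 0.26, above every core difference, so their common sign follows from that. Of all genes tested 59.8% had a lower difference than HHO1, and the levels of 82.4% did not overlap between strains. Against HTZ1, the differences ran from −0.76 for HTA1 to 0.30 for HTB2. The H2B genes lay above HTZ1 by 0.26 (HTB1) and 0.30 (HTB2), and the H2A genes below it by −0.76 (HTA1) and −0.63 (HTA2). HHT1 overlapped between strains against HTZ1 (0.07, exact permutation p = 0.5), and HTB2 against HHO1 (exact two-sided permutation p = 0.3). The exact permutation p of each of the other 14 comparisons was 0.1, the smallest that 3 against 3 arrays allow (0.11 adjusted over all 16), so this permutation test cannot reach 0.05 here.

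The divergent pairs of H2A and H2B genes had a lower H2A to H2B signal ratio in F3. The ratio of HTA1 to HTB1 was −1.16, −1.25 and −1.23 in the F3 cultures and −0.35, −0.19 and −0.04 in the reference cultures, a difference of −1.02 ± 0.09 (SE). The ratio of HTA2 to HTB2 was 0.53, 0.52 and 0.43 in F3 and 1.50, 1.40 and 1.37 in the reference, a difference of −0.93 ± 0.05 (SE). In both pairs the gap between strains was several times the spread within a strain, and in the alternatives the differences stayed between −1.27 and −0.95 for HTA1 and HTB1 and between −0.96 and −0.74 for HTA2 and HTB2. Each had an exact two-sided permutation p of 0.1, the smallest possible, and 0.16 adjusted over the 8 pairs compared. No background over other gene pairs was computed. Among all genes tested the strain differences had an SD of 1.33, and the levels of 82.4% did not overlap, so such gaps need not be particular to these pairs.

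The H3 and H4 pairs were less uniform. HHT1 over HHF1 was higher by 0.30 in F3 (−0.16, −0.14 and −0.11 on the F3 arrays, against −0.32, −0.64 and −0.36 on the reference arrays). This difference was 0.20 after normexp background correction with the 75th percentile, 0.12 after normexp with quantile normalization and 0.20 without reference replicate 2. HHT2 over HHF2 was lower by 0.19, and above 0 with quantile normalization (0.0905). Their exact permutation p was also 0.1, the smallest possible.

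Paralogs were compared in the same manner. HTA1 over HTA2 (−0.13 ± 0.12 SE), HTB1 over HTB2 (−0.04 ± 0.07) and HHF1 over HHF2 (−0.04 ± 0.02) overlapped between strains, with exact permutation p of 0.5, 0.7 and 0.2. When 1 array was left out, HTA1 over HTA2 lay between −0.19 and −0.016, the second without reference replicate 3, and HTB1 over HTB2 between −0.11 (without reference replicate 2) and 0.013 (without reference replicate 1). With quantile normalization HTB1 over HTB2 was 0.19 and HHF1 over HHF2 was 0.26. HHT1 over HHT2 was 0.13, 0.04 and 0.21 in F3 and −0.33, −0.44 and −0.19 in the reference, a difference of 0.45 ± 0.09 (SE, exact permutation p = 0.1). It was between 0.35 and 0.51 in the alternatives. The coding sequences of paralogs are similar, and the probe sequences were not used here, so the probes may not separate the copies, and agreement within a pair is uncertain for that reason.

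**Figure D3:**
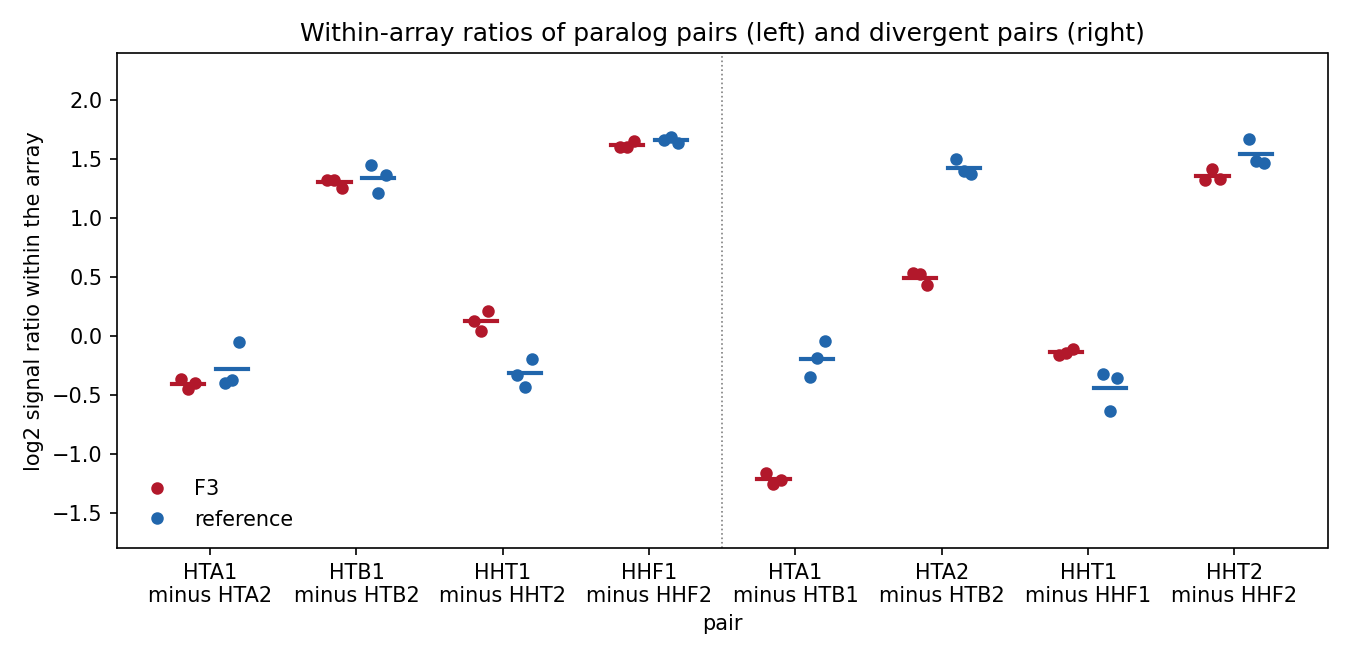
Log2 signal ratio within each array for the 4 paralog pairs (left of the dotted line) and the 4 divergent pairs (right); points are the 3 F3 and 3 reference arrays and bars are strain means. The HTA1 to HTB1 and HTA2 to HTB2 ratios lie lower in F3 by 1.02 and 0.93, while HTA1 to HTA2, HTB1 to HTB2 and HHF1 to HHF2 overlap.

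Of 12 regulators of histone transcription tested 5 were lower in F3, 1 was higher and 6 were not called, with a median of −0.03. None differed 2-fold by limma's adjusted or unadjusted p. The background over all genes tested was 38.2% lower and 41.5% higher, here and for the lists below. SPT21, the partner of Spt10 in activating histone genes, fell by 0.62 (SE 0.07, adjusted p = 5.3e-05), with levels of −2.17 ± 0.02 in F3 cultures and −1.55 ± 0.07 in reference cultures (SD, n = 3 per strain). SPT10 itself had a difference of 0.13 (adjusted p = 0.32). Of the HIR repressor genes, HIR1 fell by 0.51 and HPC2 by 0.32 (adjusted p = 2.6e-04 and 0.0048), while HIR2 and HIR3 had differences of −0.05 and −0.0073 (adjusted p = 0.52 and 0.93). RTT106, a chaperone that acts with HIR, fell by 0.29 (adjusted p = 0.022), and ASF1 had a difference of 0.10 (adjusted p = 0.38). YTA7, a chromatin factor known to limit the spread of Rtt106 at histone genes, was higher by 0.42 (adjusted p = 0.0011). SWI4 had −0.29 (adjusted p = 0.044). Without F3 replicate 2 or without reference replicate 1 only 3 regulators were called lower, and without reference replicate 1 there were 3 called higher. With spike-in scaling all 12 were higher.

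Histone chaperones and assembly factors went both ways: 8 of 18 were lower, 5 higher and 5 not called, with a median of −0.16. The shares over all genes tested were 38.2% lower and 41.5% higher. FPR4, a nucleolar prolyl isomerase that binds histones, fell by 2.65 (SE 0.11) and KAP123, an importin that carries histones H3 and H4 and ribosomal proteins, by 2.35 (SE 0.12), and both stayed below 0 with spike-in scaling (−0.94 and −0.64). CHZ1, a chaperone of H2A.Z with H2B, was higher by 0.87 (SE 0.09) and NHP6B, a nucleosome-binding HMG protein, by 0.78 (SE 0.08). The other genes at least 2-fold lower, named after their values were seen, were MSI1 (−1.31), a subunit of the CAF-1 assembly factor, NHP6A (−1.23), the close paralog of NHP6B, and HIF1 (−1.03), a partner of the Hat1 acetyltransferase. With spike-in scaling MSI1 and NHP6A were not called, and HIF1 was 0.68.

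The SWR1 and INO80 complexes, which exchange H2A.Z, had 7 of 18 members lower, 7 higher and 4 not called, with a median of −0.03. That is near the shares over all genes tested (38.2% lower, 41.5% higher). The ATPases of both complexes were higher, INO80 by 0.78 (SE 0.09) and SWR1 by 0.47 (SE 0.09), the second named after its value was seen, and so was VPS71 (0.71 ± 0.09), a SWR1 subunit. SWC3, another SWR1 subunit, fell by 1.31 (SE 0.08) and BDF1, a bromodomain protein linked to SWR1, by 1.16 (SE 0.07), and with spike-in scaling neither was called. Members of the complexes differed in both directions while HTZ1 itself differed by −0.21.

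A list of 11 genes covers acetylation of new histones and turnover of histones and their transcripts. Of these, 6 were lower, 3 higher and 2 not called, with a median of −0.42. Over all genes tested 38.2% were lower and 41.5% higher. TRF5 fell by 2.21 (SE 0.12) and RRP6 fell by 1.77 (SE 0.13), and with spike-in scaling neither was called. Both act in nuclear RNA surveillance, which has many substrates besides histone transcripts. HST4, a deacetylase of histone H3, was higher by 0.68 (SE 0.07) and HAT2, a subunit of the Hat1 acetyltransferase, by 0.62 (SE 0.09). HAT1 itself went the other way, with −1.01 (SE 0.12), and PAP2 had −1.26 (SE 0.09). These 2 genes, also at least 2-fold lower, were named after their values were seen. With spike-in scaling PAP2 was not called and HAT1 was 0.70. CSE4, the centromeric H3 variant, had a difference of 0.17 (SE 0.08, adjusted p = 0.07). It belongs to a list of 3 other nucleosome proteins, of which NHP10, an INO80 subunit, was higher (0.46) and HMO1, an HMG protein of ribosomal genes, lower (−0.36).

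Transcripts that peak in other parts of the cell cycle were set beside the histone genes. For each of these lists the background is 38.2% of genes tested called lower and 41.5% higher. Of 18 G1/S transcripts 9 were lower, 3 higher and 6 not called, with a median of −0.17. The G1 cyclins CLN1 and PCL1 fell by 2.31 (SE 0.16) and 1.79 (SE 0.10), while the replication genes RFA1 and RNR1 were higher by 0.55 (SE 0.08) and 0.40 (SE 0.09). SPT21 stands in this list and among the regulators. Of 12 G2/M transcripts 6 were lower and 2 higher (median −0.39), led by BUD8 (−1.46), a bud site marker, and the mitotic cyclin CLB1 (−1.31), with HOF1 (0.53), which acts in cytokinesis, and the transcription factor SWI5 (0.22) higher. Only 1 G2/M transcript was called higher without F3 replicate 1, F3 replicate 3 or reference replicate 3, and with the replicate block. Of 12 M/G1 transcripts 8 were lower and 2 higher (median −0.44): CDC6 (−1.42), which loads the replicative helicase, and DSE2 (−0.73), which acts in daughter cell separation, fell, and the cyclin kinase inhibitor SIC1 (0.64) and the cell wall gene PIR1 (0.45) were higher. All 3 medians were above 0 with spike-in scaling (1.54, 1.32 and 1.27). The core histone median of −0.42 lay between the G2/M and M/G1 medians. The part of cell cycle phase in the histone differences was not tested.

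Markers of meiosis and sporulation were checked because a yeast culture can hold sporulating cells. All 10 were well above background on all arrays. In F3 6 were higher and 2 lower (median 0.46), where 41.5% of all genes tested were higher and 38.2% lower. After normexp background correction with the 75th percentile 1 of the 10 markers was higher and 5 were lower. With normexp and quantile normalization 4 were higher and 4 lower. Their summed linear signal was 0.302 to 0.314 times the 75th percentile on the F3 arrays and 0.292 to 0.341 times on the reference arrays, so the ranges overlapped. The sum holds markers that went opposite ways: the sporulation genes SPS1 and SPS4 fell by 2.06 (SE 0.11) and 1.74 (SE 0.18), and the meiotic chromosome genes REC8 and HOP1 were higher by 1.37 (SE 0.10) and 0.92 (SE 0.11). With spike-in scaling SPS1 and SPS4 were not called.

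**Figure D4:**
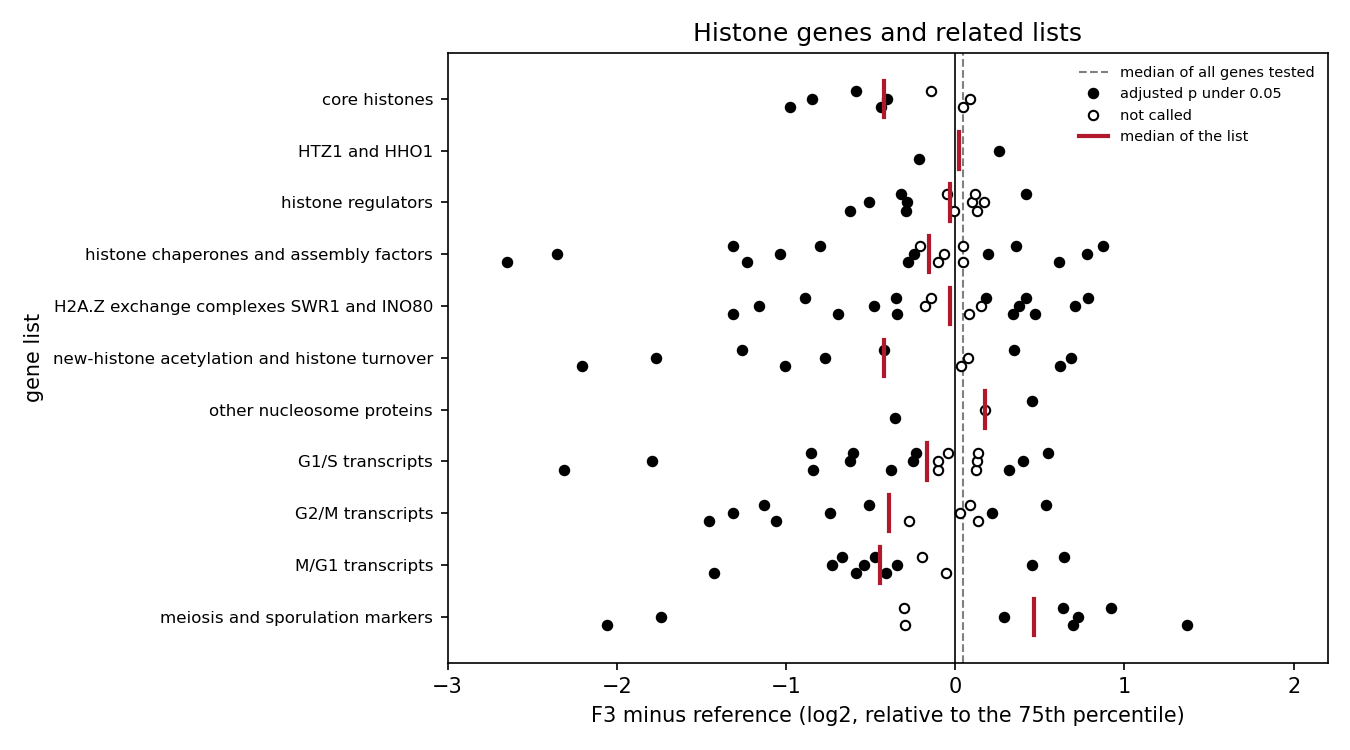
F3 minus reference (log2, relative to the 75th percentile) for each gene of the histone groups and related lists; filled points have an adjusted p under 0.05, open points do not, red bars are list medians and the dashed line is the median of all genes tested (0.05). The core histone genes lie between −0.97 and 0.09, a narrower range than that of the chaperones, which reach −2.65; spike-in scaling moves the median of all genes to 1.76.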

How the data were processed

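Per the file headers, the authors read the arrays with version 10.7.3.1 of Agilent Feature Extraction (the submitters' processing notes name 9.1). The deposited processed signal is an intensity after the software's own background subtraction and spatial detrending, with no scaling between arrays. The authors' deposited table holds log2 values centred per probe; set against scanner values centred alike, its columns had r between 0.9877 and 0.9931 and medians between −0.0141 and 0.011, so scale and direction are those of the scanner, and its scaling between arrays stays unknown. Of the deposited files, median spot and background intensities were also used, for normexp.

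Groups and replicate numbers came from the sample titles. Replicates are separate cultures, per the design text of the labels. Each probe had 2 spots, whose log2 processed signals were averaged before the array's 75th percentile was subtracted. Genes well above background on at least 3 of 6 arrays were tested (5948 of 6256). Between 93.6% and 95.3% of genes were above background on each array, and the number of arrays limits the precision. The 75th percentile of the signal was 9534, 9066 and 8314 in the F3 cultures and 2791, 4890 and 4973 in the reference cultures. Relative to 7 spike-in probes it was 1.30, 1.29 and 1.31 on the log2 scale in F3 and −0.24, −0.07 and −0.94 in the reference.

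Tests used limma 3.58.1 in R 4.3.3 (lmFit, eBayes, two-sided, Benjamini-Hochberg over all genes tested), after a check on simulated data. Names came from the RefSeq table of the R64 assembly (5756 by locus tag, 23 by synonym, 477 kept from the files), and no coordinates are given because the build of the array is not given in the sources used here. Promoter, probe and protein sequences were not used here, so a planned motif search was not made.

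Members and lists were chosen with earlier results of these data known. Named genes are the 10 members, 10 regulators of histone genes and CSE4 whatever their value, the 2 largest differences each way of each list, the genes that flank the histone loci, and the 5 profiles nearest the core mean. Alternatives changed background correction, scaling, filter, slide, replicate block and the arrays used.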

Additional observations from a re-analysis of the deposited data

How the results depend on the processing

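Spike-in scaling turned most of the results: HTA1 was 0.74, HTA2 0.86, HHT1 1.57, HHT2 1.12, HHF1 1.27, HHF2 1.31 and HTZ1 1.50, the core median was 1.29, and 0 core genes were called lower and 8 higher (at that scaling limma called 255 genes lower and 5092 higher over all). The core median stood 0.47 below the median of all genes with either scaling, by construction, since spike-in scaling shifts all genes alike. After normexp and quantile normalization HHT1 was 0.17, HHF1 0.052, the core median −0.067 and HTZ1 −0.16 (adjusted p = 0.07), 1 core gene was called higher, the core mean was 0.023 against HTZ1 and −0.42 against HHO1, and HHT2 over HHF2 was 0.038. Quantile normalization alone gave HHT1 0.22, a core median of −0.12, HTZ1 −0.16, 2 core genes higher, 0.019 against HTZ1, −0.43 against HHO1 and 0.0905 for HHT2 over HHF2. The authors' deposited values gave HHT1 0.26, HHF1 0.011, a core median of −0.083, HTZ1 −0.16, 3 core genes lower and 2 higher, 0.043 against HTZ1, −0.41 against HHO1 and 0.10 for HHT2 over HHF2. Normexp with the 75th percentile gave a core median of −0.34. The cause was not tested. Leaving out 1 array in turn gave HTZ1 between −0.24 and −0.18, the core median between −0.44 and −0.39, and 5 core genes lower each time. The replicate block lost the call of HTZ1 (−0.21, adjusted p = 0.07) and no other call of a member. The sample titles link same-numbered samples by the number only. Their deviations from the strain means correlated with r of −0.153, 0.081 and −0.251, which cannot settle whether they were paired. Of 288 counts of list members called under an alternative, 257 were within 1.5 times the main count, and 17 of the 31 others came from spike-in scaling. No probe was saturated, and signal over background did not limit any member.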

Other observations

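Genes that flank the histone loci, by gene order in the RefSeq annotation, were mixed. Of 12 neighbours 6 were lower in F3, 2 higher and 4 not called, with a median of −0.19. Among all genes tested 38.2% were lower and 41.5% higher. On the H2A side of the H2A-H2B loci, ADK1, adenylate kinase, next to HTA1, fell by 0.93 (SE 0.07, adjusted p = 2.6e-06), and UTP20, a ribosome assembly factor next to HTA2, fell by 1.43 (SE 0.11). On the H2B side, CRF1, a repressor of ribosomal protein genes next to HTB1, had a difference of −0.15 (adjusted p = 0.33), and ECM15, next to HTB2, was higher by 0.67 (SE 0.14, adjusted p = 0.0021). With spike-in scaling ADK1 and UTP20 were above 0 (0.78 and 0.28). The neighbours FLR1 and IPP1 of the HHT1-HHF1 locus had differences of 0.10 and 0.02 and were not called. At the HHT2-HHF2 locus KTR5, a mannosyltransferase gene, fell by 0.47 (adjusted p = 0.0074) and SIW14 had −0.16 (adjusted p = 0.078). HTZ1 lies between HRD1, a ubiquitin ligase gene of the endoplasmic reticulum that was higher by 0.83, and PLB3, a phospholipase gene that fell by 0.97. HHO1, itself higher, lies beside NAN1, a ribosome assembly gene that fell by 2.09 (SE 0.13) and was −0.37 with spike-in scaling, and TBF1, a telomere-binding factor, which fell by 0.21 (adjusted p = 0.029).

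The mean profile of the 8 core genes over the 6 arrays described few of its own members. Levels were taken minus each gene's own reference mean, and each core gene is part of the mean it is set against. By root-mean-square distance on the log2 scale, HHF2 lay at 0.019 with 0 genes closer and HHF1 at 0.042 with 8 closer, whereas HTA1 lay at 0.413 with 2261 of the 5948 genes closer and HTB2 at 0.352 with 1895 closer. The nearest genes outside the members were BUR6 (0.035), a subunit of a transcription regulator, OXA1 (0.037), a mitochondrial membrane insertase, VMA11 (0.038), a subunit of the vacuolar proton pump, GEP7 (0.039) and APM3 (0.040), with differences between −0.43 and −0.38.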
